A study of Mus musculus with 2 samples.

Results

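Leukocyte surface antigens are membrane molecules by which white blood cells are sorted and typed, and many of them are also carried by cells outside the blood lineages. Expression of 10 such genes (Thy1, Cd24a, Cd47, Cd200, Cd274, Cd44, Kit, Cd8a, Sdc1 and Alcam) was described in dorsal root ganglion (DRG) sensory neuron preparations. Members were found by their gene symbol, which gave 10 of the 24411 genes and 17 of the 35034 RefSeq transcripts in the files. The members were chosen by their TPM in these same libraries, which was already known when they were listed, so their levels are a description and carry no test.

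RNA-seq was available from 2 libraries, each prepared from the pooled DRG neurons of 10 male wild-type C57BL/6 mice (C57BL/6J in the study's methods). Their age is given as 6 to 8 weeks, which in the methods is the age at purchase, before acclimation and injection. One pool (the alum pool) came from mice given 200 µl of saline with 50% alum, an adjuvant made of aluminium salts. The other (the KLH pool) came from mice given this alum together with 100 µg of KLH (keyhole limpet hemocyanin), a foreign protein from a mollusc. Injections were intraperitoneal on day 0 and day 14, and thoracic and lumbar DRGs were taken 14 days after the second injection, digested, enriched for neurons over albumin and depleted of B lymphocytes with beads. The label of the control library names it both naïve and alum alone, and the alum injection given in the methods was followed here. Levels are in TPM, a relative abundance that is corrected for transcript length and sums to 1000000 in each library, so different genes can be set side by side. TPM keeps no read counts, and the files do not give the depth of each library. Each group has 1 library, so the spread between mice is not known, immunization could not be tested, and every difference below lacks a replicate check.

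Several of these antigens inhibit immune cells by contact. CD47 engages SIRPα on phagocytes and restrains engulfment, CD200 engages the receptor CD200R on myeloid cells, and PD-L1, the product of Cd274, engages PD-1 on T lymphocytes. Others act in adhesion: CD44 binds hyaluronan and osteopontin, ALCAM binds itself and CD6, and syndecan 1, the product of Sdc1, is a heparan sulfate proteoglycan used as a plasma cell marker under the name CD138. Thy-1 and CD24 are held in the membrane by a glycolipid anchor and are abundant on neurons as well as on lymphocytes, c-Kit is the receptor tyrosine kinase for stem cell factor, and CD8α is the coreceptor chain of cytotoxic T lymphocytes.

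In 3 of the genes the files list more than 1 transcript, and coding stretches in which these transcripts differ are shown. The division of TPM within a gene rests in part on such stretches and in part on differences at the transcript ends. All sequences were read from the GENCODE M21 transcripts (GRCm38, the assembly of mm10) matched to the RefSeq identifiers, with 24 flanking bases. The first pair belongs to Kit on chromosome 5, plus strand, where NM_001122733 carries 12 coding bases at chr5:75639147-75639158 that are absent from NM_021099. These bases, in capitals, lie at the end of an exon and keep the reading frame, and they correspond to the known short insert in the extracellular part of c-Kit next to the membrane.
Kit NM_001122733: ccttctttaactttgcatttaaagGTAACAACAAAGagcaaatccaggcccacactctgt
Kit NM_021099: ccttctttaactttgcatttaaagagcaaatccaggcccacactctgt

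The second pair belongs to Cd8a on chromosome 6, plus strand. NM_001081110 holds an exon of 31 bases at chr6:71375888-71375918, in capitals, that NM_009857 skips. The skip changes the reading frame, and the coding sequence is 741 bases in the first transcript and 666 bases in the second.
Cd8a NM_001081110: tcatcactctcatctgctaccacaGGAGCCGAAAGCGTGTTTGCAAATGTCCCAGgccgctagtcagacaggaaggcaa
Cd8a NM_009857: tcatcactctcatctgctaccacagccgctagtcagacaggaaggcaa

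The third pair belongs to Cd44 on chromosome 2, minus strand, where the standard form NM_001039151 joins its constant exons directly and NM_009851 inserts 10 variant exons of 1245 coding bases in all. The line for NM_009851 ends after the first 24 bases of its first variant exon (chr2:102848657-102848782), which are in capitals.
Cd44 NM_001039151: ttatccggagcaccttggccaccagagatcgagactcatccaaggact
Cd44 NM_009851: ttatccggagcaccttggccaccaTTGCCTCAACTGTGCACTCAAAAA

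All 10 genes were above 3 TPM, the detection threshold of the study, in both pools. The same was true of 45.5% of all 24411 genes, and since the members were chosen with their levels known, nothing is read from the difference. In both pools 8 of the 10 genes were above 50 TPM, and nothing is read from this count either. For scale, the integrin gene Itgav, at 50.6 TPM with alum and 51.7 TPM with KLH, was exceeded by 15.2% and 14.8% of all genes. Their median level was 198 TPM with alum and 192 TPM with KLH, and the median over all genes was 2.15 and 2.00 TPM. Together the 10 genes made up 0.613% and 0.611% of the TPM of the libraries, and Cd24a alone held 74.5% and 75.0% of that sum.

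The order of levels was the same in both pools and ran from Cd24a through Cd44, Alcam, Thy1, Cd47, Cd200, Cd274, Kit and Sdc1 to Cd8a. Since no replicates exist, the distance between neighbours in this order was set beside a neighbour SD. This is the SD of the log2 ratio between the pools over the 500 genes closest in abundance. It describes how far genes at that level differ between these libraries. The error of comparing different genes within 1 library is not measured by it, so it serves as a scale only and does not settle which places in the order are resolved. Cd24a was 11.2 times Cd44 in each pool, Cd200 was 2.31 and 2.77 times Cd274, and Kit was 4.70 and 5.30 times Sdc1, all far beyond the neighbour SD. Alcam was 1.09 and 1.11 times Thy1, a distance below the larger neighbour SD of the 2 genes in both pools (0.12 and 0.15 against 0.19 on the log2 scale). In the KLH pool Cd47 and Cd200 (1.11 times) and Sdc1 and Cd8a (1.08 times) were also closer than the neighbour SD.

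**Figure D1:**
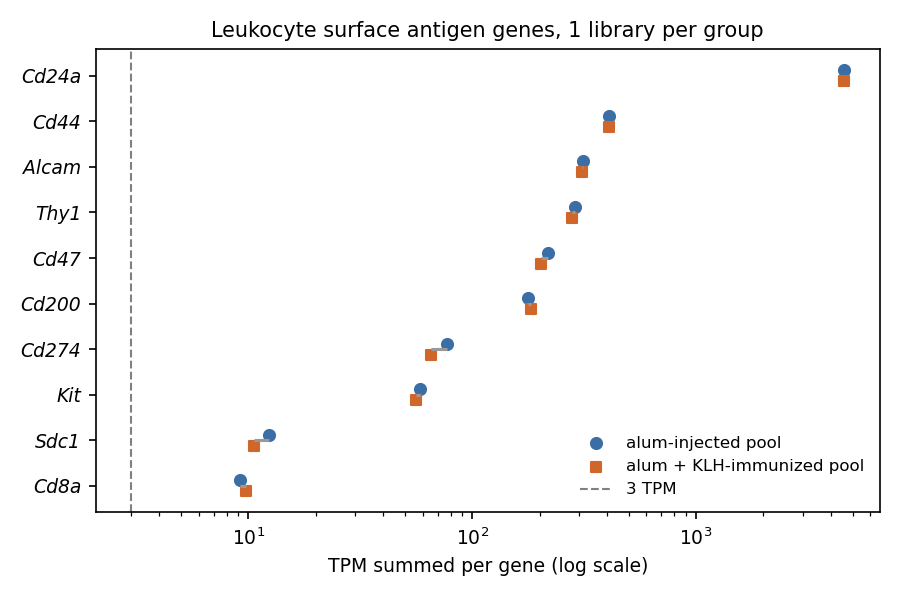
TPM summed per gene (log axis) for the 10 surface antigen genes in the alum (blue circles) and KLH (orange squares) pools, 1 library each, with the threshold of 3 TPM as a dashed line. Cd24a stood apart at 4566 and 4585 TPM, 5 genes lay between 178 and 409.7 TPM, and Sdc1 and Cd8a were the lowest, near 10 TPM.

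The preparation carried the markers of its labelled tissue, and defining leukocyte markers were low. All 11 pan-neuronal markers were above 3 TPM in both pools, the lowest being Rbfox3 at 60.8 and 44.6 TPM and the highest Nefl at 5259 and 5048 TPM. Glial markers were also present, with all 6 satellite glia markers and 5 of 8 Schwann cell markers above the threshold in both pools (Fabp7 at 953 and 888 TPM, Pmp22 at 1062 and 1021 TPM). The fibroblast marker Dcn was at 63.8 and 62.6 TPM, with 3 of 7 fibroblast genes passing, and 2 of 7 endothelial genes passed, led by Emcn at 5.17 and 4.46 TPM. The values below therefore belong to the preparation as a whole, and how much of each came from neurons or from other cells was not tested. In such bulk samples, fewer cells of a type and less RNA per cell cannot be told apart.

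Across 8 leukocyte lists (T and B lymphocytes, plasma cells, macrophages, mast cells, neutrophils, NK cells and dendritic cells) 71 marker genes had rows in the files. Their median was 0.281 TPM with alum and 0.146 TPM with KLH, and 6 of them were above 3 TPM in both pools. Ptprc, which encodes the pan-leukocyte antigen CD45, was at 0.438 and 0.411 TPM. Only 3 of the 71 genes in the alum pool (S100a8, S100a9 and Flt3) and 1 in the KLH pool (Flt3) exceeded Cd8a, the lowest of the 10 surface antigen genes. Since those 10 genes were chosen with their TPM known, nothing is read from this contrast. Neutrophil genes were the exception between the pools, with S100a8 at 32.3 and 4.59 TPM and S100a9 at 11.7 and 0.962 TPM, and the hemoglobin gene Hba-a1 was at 4.15 and 1.62 TPM. Over the 7 neutrophil genes in the files the summed level was 49.0 and 8.01 TPM, and over the 9 erythroid and platelet genes it was 10.4 and 3.71 TPM. Neutrophils and red cells carry CD24, CD44 or CD47, whose genes had levels of 4566 and 4585 TPM, 409 and 409.7 TPM, and 217 and 203 TPM. The part of these markers in the values of the 10 genes was not tested.

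**Figure D2:**
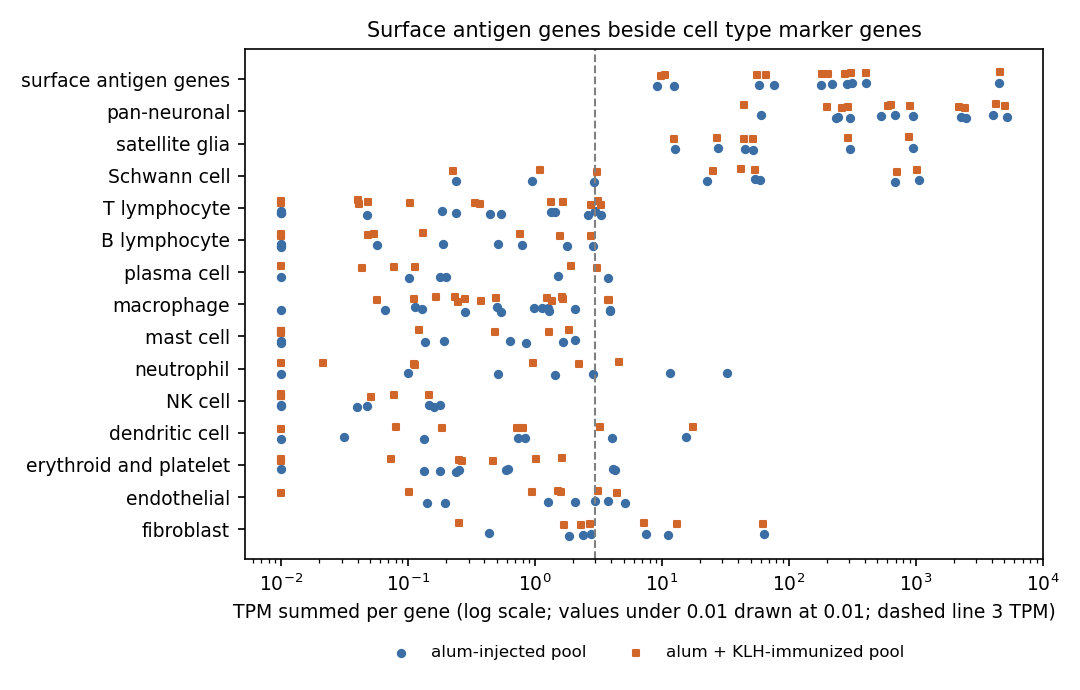
TPM summed per gene (log axis, values under 0.01 drawn at 0.01) for the 10 surface antigen genes and for marker genes of 14 cell types, 1 point per gene and pool, with 3 TPM as a dashed line. The surface antigen genes overlapped the range of the pan-neuronal and glial markers, and most leukocyte markers were left of the line.

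The glycolipid-anchored antigens were represented by Cd24a and Thy1. Cd24a (NM_009846, 2 exons on the plus strand of chr10:43579169-43584265) was at 4566 TPM with alum and 4585 TPM with KLH. It ranked 6th and 8th among all genes of the libraries and reached 113% and 107% of Snap25, an abundant synaptic gene. Of the 31-base words of this transcript, 7.11% also occur in annotated transcripts of other genes, of which Gm6212 holds 6.10% and Gm15352 1.40%. Neither has a row in the files, so reads of such copies could have been counted as Cd24a. Thy1 (NM_009382, 4 exons on the plus strand of chr9:44043384-44048579), which encodes the antigen first described on thymocytes and neurons, was at 289 and 280.0 TPM. It shared no 31-base word with other annotated genes and was exceeded by 2.89% and 3.05% of genes.

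Related immunoglobulin-type anchored molecules of neurons were read beside Thy1. All 4 of the IgLON genes listed were above 3 TPM in both pools, and the highest was Opcml at 123 and 128 TPM, below Thy1. Known binding partners of Thy-1 differed widely. The integrin αv gene Itgav was at 50.6 and 51.7 TPM and syndecan 4 (Sdc4) at 269 and 262 TPM. The partner β3 subunit, Itgb3, was at 1.61 and 1.74 TPM, and the leukocyte integrin genes Itgam and Itgb2 were at 1.27 and 1.24 TPM and at 0.0666 and 0 TPM. For CD24, the inhibitory receptor gene Siglecg was listed at 0 in both pools and the P-selectin gene Selp was at 3.15 and 2.79 TPM.

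Among the adhesion molecules Cd44 was the highest, with a gene total of 409 TPM with alum and 409.7 TPM with KLH (chromosome 2, minus strand). The standard form NM_001039151 accounted for 93.8% and 94.2% of that total, at 384 and 386 TPM. The longest variant form NM_009851, with 19 exons, was at 14.4 and 15.9 TPM. The other 4 transcripts, which carry between 2 and 7 variant exons, were each below 5 TPM. One of them, NM_001177785, was at 2.36e-09 and 2.76e-07 TPM, which is effectively 0. Within Cd44, 33.9% of the 31-base words of NM_009851 belong to it alone, while only 1.06% of those of NM_001039151 do. The level of the standard form thus rests largely on words shared with the other forms. NM_009851 also holds 1406 bases at its 3′ end, after the coding sequence, that are not in NM_001039151. How much of its TPM came from these bases or from the variant exons was not tested.

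Ligands of CD44 were unevenly represented. Spp1, which encodes osteopontin, was at 196 and 352 TPM, a log2 ratio of 0.84 beside a neighbour SD of 0.19. The proteoglycan gene Vcan was at 5.72 and 4.76 TPM. The 3 hyaluronan synthase genes were all below 3 TPM in both pools, the highest being Has3 and Has2 at 1.07 and 1.34 TPM and at 1.30 and 1.28 TPM.

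Alcam (NM_009655, 16 exons on the minus strand of chr16:52248996-52454074), whose product guides and bundles axons, was at 314 and 310.4 TPM. Its lymphocyte receptor gene Cd6 was listed at 0 in the alum pool and at 0.0896 TPM in the KLH pool, whereas L1cam, a neuronal adhesion partner, was at 101 and 85.1 TPM. The related genes Mcam, Ncam1 and Bcam were all above 3 TPM and below Alcam, at 84.9 and 91.1 TPM, 57.1 and 54.4 TPM, and 19.2 and 14.2 TPM.

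Sdc1 (NM_011519, 5 exons on the plus strand of chr12:8771323-8793715) was at 12.4 and 10.6 TPM and was the lowest of the 4 syndecan genes. Sdc4 was at 269 and 262 TPM, Sdc2 at 35.1 and 36.7 TPM and Sdc3 at 20.4 and 16.4 TPM. The heparan sulfate polymerase genes Ext1 and Ext2 were at 20.2 and 18.6 TPM and at 9.01 and 8.16 TPM. Of the 6 plasma cell markers listed beside Sdc1, only Prdm1 was above 3 TPM in both pools, and Mzb1 was listed at 0 in both.

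The inhibitory ligands Cd47, Cd200 and Cd274 were all expressed well above the threshold. Cd47 (NM_010581, 10 exons on the plus strand of chr16:49855645-49915010) was at 217 TPM with alum and 203 TPM with KLH. Cd200 (NM_010818, 6 exons on the minus strand of chr16:45382135-45409053) was at 178 and 182 TPM. Cd274 (NM_021893, 7 exons on the plus strand of chr19:29367455-29388095) was at 77.0 and 65.6 TPM and was exceeded by 10.9% and 12.4% of genes.

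The receptors that read these ligands on leukocytes were mostly near or at 0. Sirpa, which neurons and myeloid cells both use, was at 13.3 and 13.5 TPM, and thrombospondin 1 (Thbs1), another CD47 ligand, was at 10.3 and 9.02 TPM. Cd200r1 was at 0.103 TPM in the alum pool and listed at 0 in the KLH pool, and of the 4 CD200 receptor genes none was above 3 TPM, with Cd200r2 the highest at 2.10 and 2.13 TPM. Pdcd1, which encodes PD-1, was listed at 0 in both pools. The 6 other B7 family ligand genes listed beside Cd274 (Pdcd1lg2, Cd80, Cd86, Cd276, Vtcn1 and Icosl) were all below 2 TPM, the highest value being 1.65 TPM for Icosl in the alum pool. An annotated antisense gene on the opposite strand, AC119228.1, shares 12.1% of the 31-base words of Cd274. It has no row in the files. Since the strand setting of the quantification is not given in the sources used here, reads from these shared words cannot be told apart. In all, 14.6% of the words of Cd274 also occur in other annotated genes.

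**Figure D3:**
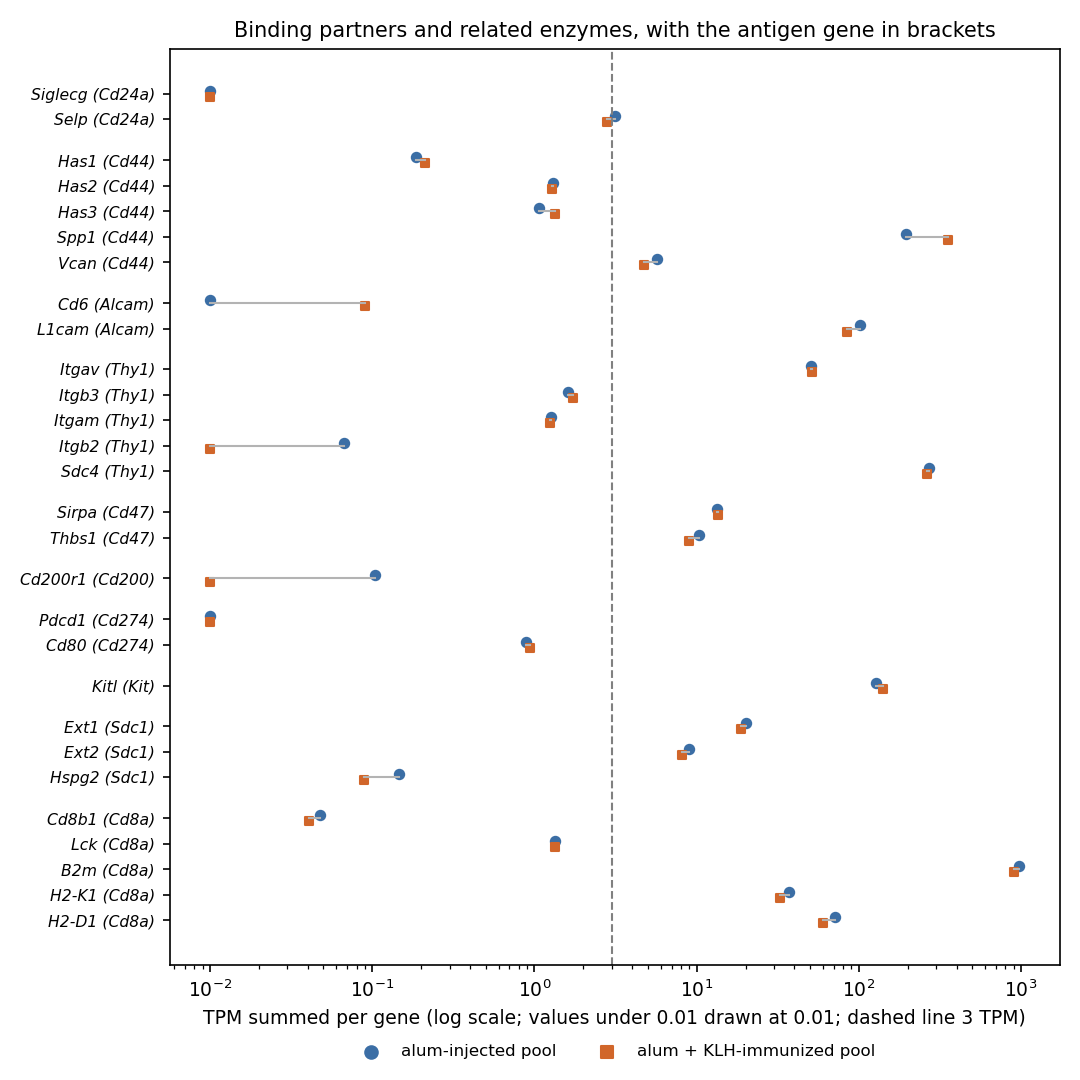
TPM summed per gene (log axis, values under 0.01 drawn at 0.01) for 28 binding partners and related enzymes, with the surface antigen gene in brackets, in the alum pool (blue circles) and the KLH pool (orange squares), and 3 TPM as a dashed line. Of these 28 genes 13 were above 3 TPM in both pools, close to the share of all genes (45.5%). The leukocyte receptors Siglecg, Pdcd1, Cd200r1 and Cd6 lay at the left edge or near it.

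Kit and Cd8a encode receptors whose usual cells are mast cells and progenitors, and T lymphocytes. Kit (21 exons on the plus strand of chr5:75574916-75656722) was at 58.1 TPM with alum and 56.2 TPM with KLH. Its ligand gene Kitl was at 128 and 141 TPM in the same preparations. None of the 8 mast cell markers was above 3 TPM in either pool, the highest being Cpa3 at 2.07 and 1.86 TPM. Of the 4 related receptor kinase genes, only Flt3 was above 3 TPM, at 15.4 and 17.7 TPM.

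The total of Kit was divided between its transcripts in different proportions in the pools. NM_021099, without the 12-base insert, was at 33.0 TPM with alum and 38.9 TPM with KLH. NM_001122733, with the insert, was at 25.2 and 17.3 TPM. The share of the form with the insert was thus 43.3% and 30.8%, a difference of 12.5 percentage points. For this transcript the log2 ratio was -0.52 beside a neighbour SD of 0.25, and 4.4% of the 500 transcripts closest in abundance differed as much. For the form without the insert the ratio was 0.23 beside an SD of 0.26.

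Changes of this size in transcript shares also occurred in other genes of these libraries. They were less frequent among genes matched to Kit in number of transcripts and in level. Among 2585 genes with 2 or more transcripts and a total above 10 TPM in both pools, 16.9% had a transcript whose share differed by 10 points or more, and 12.4% reached the difference of Kit. Among the 545 genes with 2 transcripts and a mean level within 2-fold of Kit, 5.32% did. They were not matched on how evenly the transcripts divided the total, or on how many words told them apart. How common such a change is among genes divided like Kit is thus not known. The largest share change in these 545 genes had a median of 2.15 points and a 90th percentile of 9.93 points. The division rests on few words, since 38 of 5184 words of 31 bases belong to NM_001122733 alone and 65 of 5211 to NM_021099. NM_021099 also holds 39 bases at its 5′ end, before the coding sequence, that are not in NM_001122733.

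**Figure D4:**
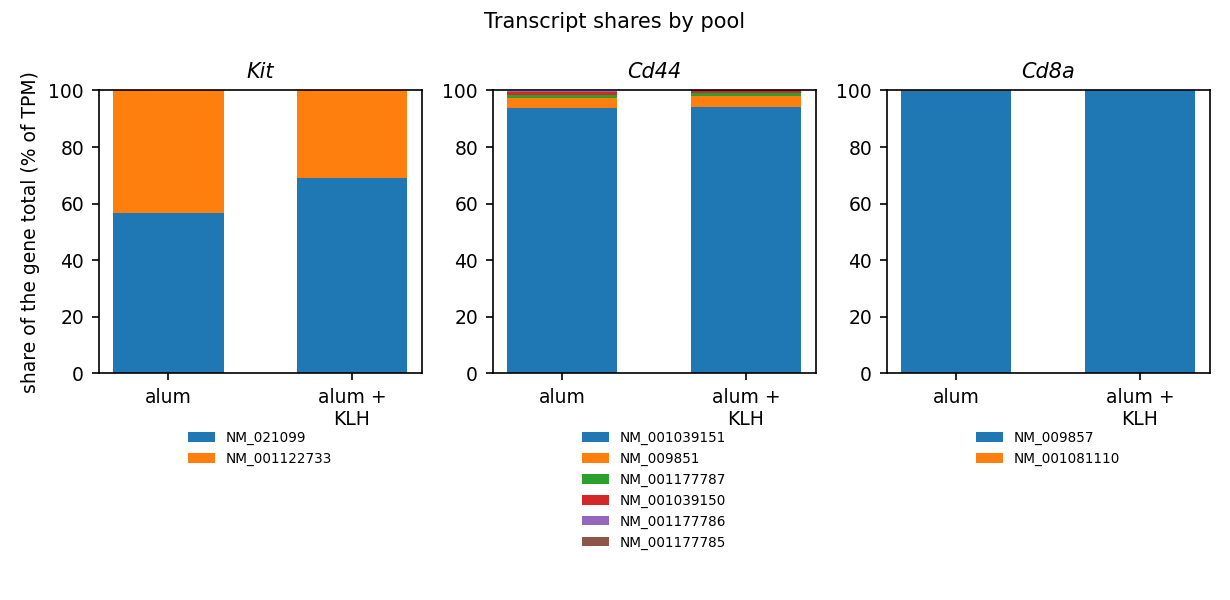
Share of each RefSeq transcript in the TPM of its gene (% of the gene total, stacked bars from 0) for Kit, Cd44 and Cd8a in the alum and alum + KLH pools, 1 library each. The form of Kit with the insert took 43.3% and 30.8%, the standard form of Cd44 took 93.8% and 94.2%, and NM_009857 held nearly all of Cd8a in both pools.

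Cd8a was the lowest of the 10 genes, at 9.20 TPM with alum and 9.79 TPM with KLH, and was exceeded by 35.3% and 33.9% of genes. Nearly all of it was assigned to NM_009857 (4 exons on the plus strand of chr6:71373553-71379173), which lacks the 31-base exon. NM_001081110, which holds that exon, was at 1.22e-05 and 2.19e-06 TPM. Of the words of 31 bases, 33 of 2945 belong to NM_009857 alone and 186 of 3098 to NM_001081110, and the latter also has a longer 5′ end before the coding sequence. Genes that act with CD8α in T lymphocytes were not at a like level. The CD8β gene Cd8b1 was at 0.0475 and 0.0409 TPM, and Lck, the kinase bound by the tail of full-length CD8α, was at 1.34 TPM in both pools. The transcript assigned here reads in another frame after the skipped exon, and whether its product binds Lck was not tested. Of 13 T lymphocyte markers 0 were above 3 TPM in both pools, with Cd3d at 2.97 and 3.13 TPM and Cd3g and Cd5 listed at 0. The class I genes whose products CD8 binds were above the threshold, with B2m at 975 and 900.4 TPM, H2-D1 at 71.5 and 59.7 TPM and H2-K1 at 37.3 and 32.6 TPM.

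Between the pools, none of the 10 genes differed by 2-fold or more. The comparison asks whether immunization with KLH went with a different level of these antigens, and its measure was log2 of (TPM + 1), KLH pool minus alum pool. Of the 11648 genes above 3 TPM in at least 1 pool, 0.695% were at least 2-fold higher, 0.944% at least 2-fold lower and 1.64% at least 2-fold apart in either direction. The median ratio of the 10 genes was -0.03, beside -0.02 over those 11648 genes. Of the 10, 4 were higher and 6 lower in the KLH pool, while 56.4% of the 11648 genes were lower.

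Cd274 had the largest difference, from 77.0 to 65.6 TPM, a log2 ratio of -0.23. It was the only one of the 10 genes beyond its neighbour SD (0.15), and 7.0% of the 500 genes closest in abundance differed as much. The share of all genes beyond their own neighbour SD was not counted. Sdc1 followed with -0.21, within its neighbour SD of 0.22, and 19.4% of similar genes differed as much. Relative to Hprt, whose own log2 ratio was 0.08, all 10 ratios were lower. Sdc1 and Kit, at -0.28 and -0.13, then passed neighbour SDs taken before this scaling, which moves similar genes down as well. Cd47 had a ratio of -0.10 beside an SD of 0.21, and Cd8a a ratio of 0.08 beside an SD of 0.26. For the remaining 6 genes (Kit, Thy1, Cd200, Alcam, Cd24a and Cd44) the ratio lay between -0.05 and 0.03, and at least 63.4% of similar genes differed as much. Cd44 differed the least, with a ratio of 0.0021, while its ligand gene Spp1 had a ratio of 0.84. The directions of small ratios depended on the scaling. Relative to Hprt, Cd24a, Cd44 and Cd200 were lower in the KLH pool, and Alcam was higher once the KLH pool was scaled to a median ratio of 1.

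**Figure D5:**
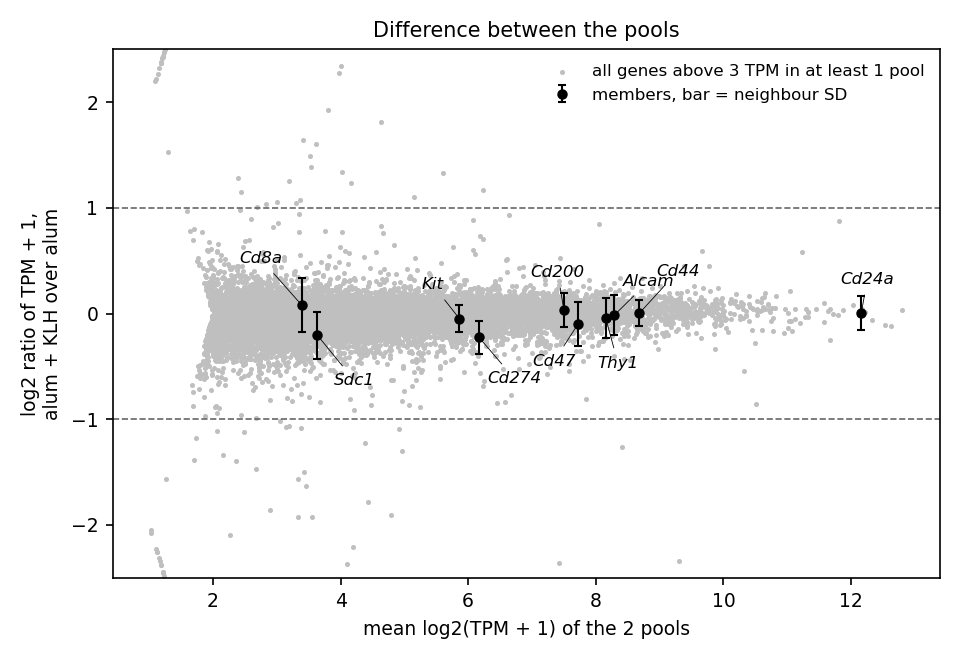
Log2 ratio of TPM + 1, alum + KLH over alum, against the mean log2(TPM + 1) of both pools, for all 11648 genes above 3 TPM in at least 1 pool (grey) and the 10 surface antigen genes (black, bars are the neighbour SD, not replicate error). The 10 genes lay between -0.23 and 0.08, inside the dashed lines that mark 2-fold, and 110 grey points fell outside the plotted range of 2.5 in either direction.

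Of the 28 partner genes 14 were above 3 TPM in at least 1 pool, beside 11648 of all 24411 genes. Among these 14, 0 were 2-fold apart, beside 1.64% of all genes at that level. In the KLH pool 4 of them were higher and 10 lower (71.4%, beside 56.4% of all genes), and Spp1 had the largest difference. Of the 24 family genes 11 were at that level, with 5 higher, 6 lower and 0 of them 2-fold apart.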

How the data were processed

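Libraries were made by the authors from poly(A) RNA with a stranded kit, sequenced in paired-end mode, trimmed with cutadapt and quantified with kallisto on annotated mm10 transcripts. They deposited TPM for each RefSeq transcript in 1 file per pool of 10 mice. Versions and the strand setting are not given in the sources used here. The study's methods state only a minimum read depth for the libraries, and the reads behind each value cannot be recovered from TPM, so no interval or floor was computed.

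TPM was summed over rows with the same symbol. Differences were computed as log2 ratios with a pseudocount of 1 TPM, which understates changes of low genes, and set beside the SD over the 500 closest genes. A gene or transcript share was compared as a percent of the gene total. Exons, positions and sequences came from GENCODE M21 (GRCm38), with all 17 transcripts matched, and shared words of 31 bases were counted in either orientation. Alternatives were pseudocounts of 0.1 and 0.5 TPM, the highest transcript per gene, 2 rescalings, the removal of small RNA rows, and other thresholds and filters.

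The genes named were all 10 members, the listed partner and family genes, the 5 highest other surface antigens and the leading genes of each marker list, with further marker genes named after their values were seen. Members and lists were chosen with earlier results of these data known. Calculations used Python 3.11.15, numpy 2.4.6 and pandas 2.3.3, plots used matplotlib 3.10.9, and the ratio and SD calculation was tested on simulated data.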

Additional observations from a re-analysis of the deposited data

How the results depend on the processing

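No paired analysis was possible because each group has 1 library and no replicate numbers link them, and no library could be left out. Each of the 10 log2 ratios was recomputed under 6 alternatives, and 59 of the 60 values moved by less than the neighbour SD. The exception was Kit, whose ratio was 0.23 on its highest transcript and -0.05 on the gene total. This follows from using NM_021099 alone. The median ratio of the 10 genes ranged from -0.11 (relative to Hprt) to -0.0045 (highest transcript), and in none of these alternatives was any of the 10 genes 2-fold apart. All 10 genes were above 1 TPM in both pools, and 9 of them (all but Cd8a) were above 10 TPM. The count of all genes at least 2-fold apart fell from 191 to 74 when only genes above 10 TPM in at least 1 pool were kept. Most of the 191 were thus at or below 10 TPM in both pools. With TPM weighted by transcript length the Kit form with the insert took 43.2% and 30.7%. The reads behind each TPM value are not known, so counting error could not be given.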

Other observations

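Other surface antigens used in typing leukocytes were read as a list of 52 genes, and 26 passed 3 TPM in both pools. At the top were the tetraspanin gene Cd9 at 1500 TPM with alum and 1720 TPM with KLH, the complement regulator gene Cd55 at 1652 and 1479 TPM, the sialomucin gene Cd164 at 758 and 894 TPM, the integrin β1 gene Itgb1 at 478 and 480 TPM and the transferrin receptor gene Tfrc at 279 and 270.1 TPM. Only Cd24a, of the 10 genes described above, was higher than Cd9 and Cd55. In this list 9 genes exceeded 100 TPM in each pool. For scale, Cd151, at 109 TPM with alum and 97.3 TPM with KLH, was exceeded by 8.18% and 8.95% of all genes. The share past 3 TPM (26 of 52) was close to that of all genes, 45.5%.

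Between the pools, 27 of these genes were above 3 TPM in at least 1 pool, and 0 of the 27 differed by 2-fold, beside 1.64% of all genes at that level. Cd9 and Cd164 were higher in the KLH pool by more than the neighbour SD, with log2 ratios of 0.20 and 0.24 beside 0.16 for both. Another 6 genes were lower by more than it (Cd63, Cd151, Bsg, Ly6c1, Slc3a2 and Cd93), from -0.13 for Slc3a2 to -0.42 for Ly6c1, and were named after their values were seen. Slc3a2 passed only narrowly, at -0.129 beside an SD of 0.127. The share of all genes beyond their own neighbour SD was not counted, so nothing is read from these counts. These differences have no replicate check.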
